A study of Mus musculus with 22 samples.

Results

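Spinal cord was compared above and below T6, 48 h after the aorta of mice had been clamped for 7.5 min, to ask for each gene whether the effect of clamping differed between the regions. The quantity tested was the effect below T6 (caudal cord, 48 h clamp minus caudal sham) minus the effect above T6 (rostral cord, 48 h clamp minus rostral sham). It used 15 of the 22 Affymetrix Mouse430_2 arrays of the series, chosen by their labels alone: 4 caudal and 4 rostral 48 h clamp arrays (numbered 271 to 274), 3 caudal sham arrays (278 to 280) and 4 rostral sham arrays (277 to 280). All mice were wild-type C57Bl/6 from Jackson Laboratories, 10 to 12 weeks old, and all were operated on. Sham and clamp groups share the surgery and differ in the clamping of the aorta. Their arrays also differed in heart muscle transcripts, with a mean level of 6.21 to 9.24 on 48 h and 5.81 to 5.91 on sham arrays. The effect of clamping here means the contrast of 48 h clamp and sham arrays, and other differences between these groups were not tested. The labels give no time after surgery for the sham groups. Clamping the aorta cuts the blood supply of tissue below the clamp, and how much flow the cord above T6 lost is not stated in the labels. Nothing in the labels ties each array to an animal of its own, so p-values cover only the spread between these arrays, which may be technical. Values are log2 RMA signals, changes and differences are on the log2 scale with standard errors (SE), and adjusted p-values are Benjamini-Hochberg values from limma over 18193 genes, called when under 0.05. Precision is limited by the number of arrays.

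The spinal cord below the aortic clamp loses most of its inflow, and delayed loss of leg function after aortic surgery is attributed to injury of its grey matter. Microglia, the resident macrophages of the cord, sense injury through pattern recognition receptors such as the Toll-like receptors, which act through the transcription factors NF-kappaB and interferon regulatory factors. They then release cytokines, chemokines and complement, and these act on astrocytes, vessel walls and incoming blood leukocytes. Whole cord was measured, so a change in a transcript of 1 cell type cannot be told apart from a change in the number of those cells.

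Region labels were checked with Hox genes, whose position along the body axis is fixed. Hoxc10, a lumbar gene, lay between 9.19 and 10.48 on the 7 caudal arrays and between 5.32 and 6.22 on the 8 rostral ones, and Hoxc5, a cervical gene, was higher on every rostral array, so the labels matched the 15 arrays used. Some arrays stood apart. Values of caudal 48 h array 271 had a smaller spread over probe sets, with an SD of 2.05 where the other 14 arrays had 2.22 to 2.27, and its median correlation with other arrays was 0.912. The Gapdh control had less 5-prime than 3-prime signal, by −1.05 and −0.68, on caudal 48 h array 274 and caudal sham array 280. Transcripts of heart muscle were present in 48 h samples of both regions, more in rostral than in caudal ones, and are given beside the results they move with. The difference was called for 22 genes in every one of the 15 fits that left out 1 array. These were Ccl3, Ccl4, Cd69, Cd72, Cst7, Egr3, Fcrls, Gem, Ifi204, Il1a, Il6, Ly86, Mpeg1, Tlr2 and Tlr3 among the genes more raised in caudal cord, and Actc1, Ckmt2, Cox6a2, Mybpc3, Myh6, Myom1 and Tnnt2 among those more raised in rostral cord. The other called genes passed in 2 to 14 of these fits. Among them Cxcl2 and Tnfaip3 passed in 2, Acod1 in 3, Tslp and Gpr84 in 4, Clec7a in 6, Ccl12 in 8 and Cxcl10 in 12.

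Many more genes were called between 48 h clamp and sham arrays below T6 than above it. In caudal cord 645 genes rose (3.55% of those tested) and 375 fell (2.06%), against 59 that rose (0.324%) and 9 that fell (0.0495%) in rostral cord. Of the 1020 genes called in caudal cord, 21 were also called in rostral cord in the same direction, which is 2.06% of the caudal and 30.9% of the rostral calls, and 0 were called in opposite directions (limma, with 5009 caudal and 1057 rostral genes at an unadjusted p under 0.05). Of the 59 rostral rises, 20 were genes of the heart muscle list, and 6 genes of this list rose in caudal cord. A fit without heart, skeletal muscle and adipocyte genes, chosen after the data were seen, called 1013 genes in caudal and 35 in rostral cord. It left 7 genes, in place of 15, called in both regions with no call of the difference. The difference of effects itself passed the test for 69 genes, and 1490 genes (8.19%) had an unadjusted p under 0.05 for it. It was higher in caudal cord for 52 (0.286%) and lower for 17 (0.0934%), and 62 of the 69 differed by 2-fold or more.

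The 52 genes with a higher effect in caudal cord had a median caudal change of 2.19 and a median rostral change of 0.20. On every one of the 52 the 4 caudal 48 h arrays lay above the 3 caudal sham arrays and above the 4 rostral 48 h arrays, while for 37 of them the rostral 48 h arrays overlapped the rostral sham arrays. The 52 were chosen by a contrast of these same arrays, which favours such gaps. Another 18109 genes had no call of the difference and were not called in both regions. Among them caudal 48 h and sham arrays were apart, in either direction, for 3553, and the 48 h arrays of the regions for 2013. The 17 genes with a lower effect in caudal cord had a median caudal change of 0.87 and a median rostral change of 3.36. For 18 of the 52, other probe sets of the gene were on the array, and all of these had the same sign. With the mean of probe sets in place of the brightest, 39 of the 52 were still called. Those no longer called were Arhgap25, Cd84, Cmpk2, Crem, Csrnp1, Cybb, Fcgr1, Hcls1, Hpgd, Ifit2, Jun, Slfn9 and Tnfaip3. The count of 52 depended on single arrays. It was 106 without caudal 48 h array 271 and 263 without caudal 48 h array 274. It was 31 and 27 without rostral 48 h arrays 273 and 274, 18, 18 and 22 without caudal sham arrays 278, 279 and 280, and 28, 27, 27 and 29 without rostral sham arrays 277, 278, 279 and 280. The count of 17 became 44, 73 and 28 without caudal 48 h arrays 271 and 274 and rostral 48 h array 271, and 8, 9 and 7 without caudal sham arrays 278, 279 and 280. In each of these fits every one of the 52 and of the 17 genes kept its sign. The fits share most arrays with the one that chose the genes, so kept signs say little about stability.

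**Figure D1:**
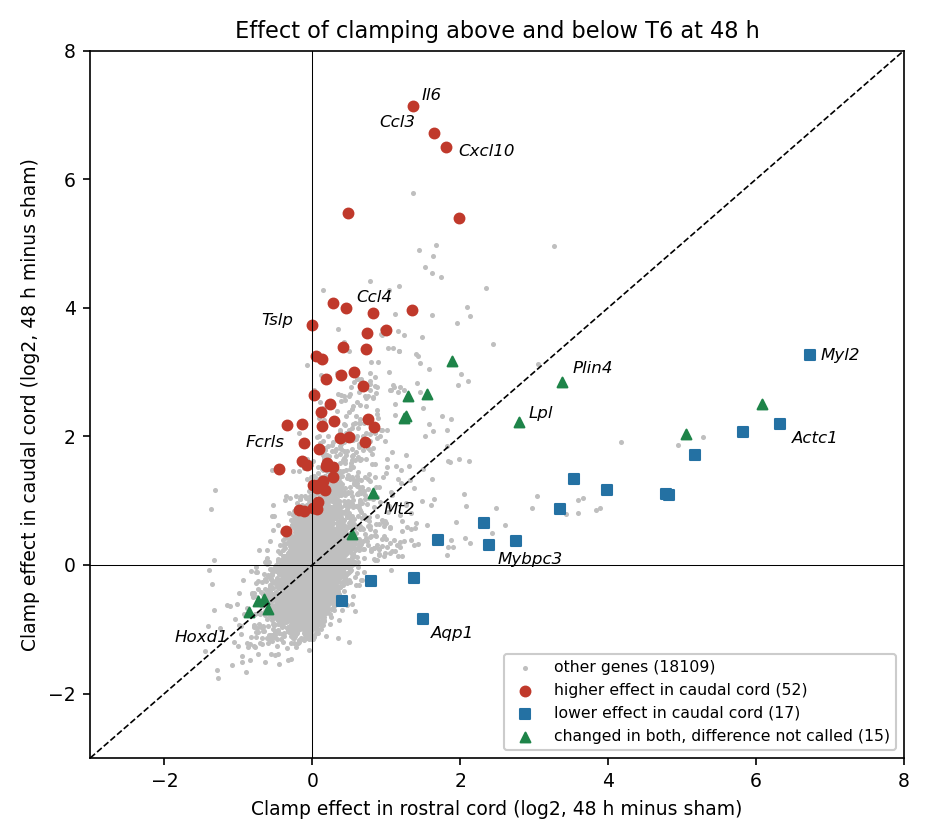
Clamp effect in caudal cord (vertical axis) against the effect in rostral cord (horizontal axis), both 48 h minus sham in log2 units, for 18193 genes. The dashed line marks equal effects. The 52 genes with a higher caudal effect (red circles) rise along the vertical axis with Il6 at the top, the 17 with a lower one (blue squares) lie along the horizontal axis to Myl2, and the 15 genes changed in both regions (green triangles) lie between.

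A gene counted as restricted to caudal cord when its difference and its caudal effect passed the test in the same direction, its rostral effect did not pass, and the 95% interval of the rostral effect lay within −1 to 1. There were 37 such genes (0.203%), 36 that rose and 1 that fell. For 32 of the 37 the rostral 48 h arrays overlapped rostral sham, which the rule favours, as it asks for a rostral effect that did not pass. For a further 15 genes the caudal rise and the difference passed and the rostral effect did not, but its interval reached past 1, so a rostral change of 2-fold or more lay within it. Leaving out caudal 48 h array 271 or 274 gave 96 or 237 restricted genes. Leaving out rostral 48 h arrays 273 and 274 gave 19 and 15, caudal sham arrays 278, 279 and 280 gave 14, 14 and 16, and rostral sham arrays 277 to 280 gave 17, 18, 18 and 19.

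The largest differences were those of the cytokine Il6 and the chemokines Ccl3, Cxcl2 and Cxcl10. Il6, the gene of interleukin 6, lay between 3.75 and 4.06 on all 7 sham arrays. It reached 12.49, 11.73, 10.67 and 9.45 on caudal 48 h arrays 271, 272, 273 and 274, and 5.64, 5.67, 5.66 and 4.06 on the rostral arrays of the same numbers. Every caudal array was thus far above sham, and 3 of the 4 rostral arrays were modestly so, with array 274 at the sham level. The caudal change was 7.14 ± 0.54, the rostral change 1.37 ± 0.50 (adjusted p = 0.552), and their difference 5.77 ± 0.74 (n = 15 arrays, limma adjusted p = 0.00287). Cxcl2, a chemokine that recruits neutrophils, lay between 3.67 and 3.99 on sham arrays and at 11.28, 10.04, 9.18 and 6.67 on the caudal arrays, against 4.34, 4.81, 4.56 and 3.99 on the rostral arrays. Its difference was 4.99 ± 0.95 (limma adjusted p = 0.0357), and caudal array 274 was the lowest of its group, as it was for Il6. The sham levels of Il6 and Cxcl2, like those of Ccl3 and Tslp below, were under the lower quartile of all probe sets (5.17 to 5.52 on the 15 arrays), and background was not measured separately, so no fold is given against them.

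The promoters of these genes and of Il1a and Clec7a, restricted to caudal cord, and Mt2, changed in both regions, are printed because members of the NF-kappaB, AP-1 and interferon pathways rose with them. The sequences are from RefSeq (GRCm38.p6), run 5′ to 3′ along the gene from 250 bases before to 50 bases after the start, and have motif matches on either strand in capitals: GGANTTTCC (the kappaB motif), TTTCNNTTT (interferon-type), TGANTCA (AP-1) and TGCNCNC (the metal response core). Clec7a, Il1a and Mt2 were the leading genes of their classes with an entry in the table, and Il6 and Cxcl2 were chosen after their values were seen.
Il6, chr5:30012864-30013163, plus strand: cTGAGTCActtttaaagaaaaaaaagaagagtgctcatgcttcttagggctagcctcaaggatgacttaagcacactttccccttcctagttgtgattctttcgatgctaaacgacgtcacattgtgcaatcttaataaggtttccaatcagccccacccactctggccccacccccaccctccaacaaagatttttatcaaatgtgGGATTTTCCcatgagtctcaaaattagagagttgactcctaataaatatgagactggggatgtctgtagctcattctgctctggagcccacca
Cxcl2, chr5:90903649-90903948, plus strand: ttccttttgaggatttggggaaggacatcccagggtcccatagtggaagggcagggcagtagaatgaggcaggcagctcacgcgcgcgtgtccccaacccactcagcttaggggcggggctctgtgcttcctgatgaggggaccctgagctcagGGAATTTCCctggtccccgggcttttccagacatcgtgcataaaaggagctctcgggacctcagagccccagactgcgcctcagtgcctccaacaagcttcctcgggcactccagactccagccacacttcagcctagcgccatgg
Il1a, chr2:129309923-129310222, minus strand: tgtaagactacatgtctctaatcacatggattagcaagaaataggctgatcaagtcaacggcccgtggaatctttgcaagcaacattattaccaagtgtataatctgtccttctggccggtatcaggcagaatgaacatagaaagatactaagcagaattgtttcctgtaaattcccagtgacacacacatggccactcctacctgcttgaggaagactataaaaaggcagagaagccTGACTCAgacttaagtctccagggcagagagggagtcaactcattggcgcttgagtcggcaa
Clec7a, chr6:129472730-129473029, minus strand: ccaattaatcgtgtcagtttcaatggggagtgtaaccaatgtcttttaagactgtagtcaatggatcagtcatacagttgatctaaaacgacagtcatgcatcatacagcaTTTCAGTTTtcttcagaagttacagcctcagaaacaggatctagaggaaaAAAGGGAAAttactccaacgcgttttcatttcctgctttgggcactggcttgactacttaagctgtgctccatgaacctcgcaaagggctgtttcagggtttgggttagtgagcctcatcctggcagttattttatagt
Mt2, chr8:94172368-94172667, plus strand: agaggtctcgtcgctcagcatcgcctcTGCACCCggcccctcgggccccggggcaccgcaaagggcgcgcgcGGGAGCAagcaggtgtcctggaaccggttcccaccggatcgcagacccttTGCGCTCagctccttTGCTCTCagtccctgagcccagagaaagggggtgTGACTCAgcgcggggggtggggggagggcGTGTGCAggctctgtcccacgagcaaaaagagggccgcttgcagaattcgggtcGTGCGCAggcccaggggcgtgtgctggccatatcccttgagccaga
Il6 holds a kappaB match at −43 and an AP-1 match at −249, Cxcl2 a kappaB match at −96, Il1a an AP-1 match at −12 and Clec7a interferon-type matches at −139 and −89, counted from the start. Mt2 holds 6 metal matches and 1 AP-1 match at −79. Of the 52 genes, 39 were in the table with 48 promoters. The kappaB motif was in 7 of these (14.6%), against 1.25% of all 32851 promoters of the same length, in Acod1, Btg2, Cxcl10, Cxcl2, Il6, Tlr3 and Tnfaip3. The interferon-type motif was in 25% against 10.6%, the AP-1 motif in 22.9% against 7.81%, and the metal motif in 45.8% against 51%. Among the 18109 promoters of genes on the array, the shares of these motifs were 1.35% (kappaB), 8.69% (interferon-type), 6.38% (AP-1) and 57.9% (metal). For the 17 genes with a lower effect in caudal cord, 13 were in the table with 15 promoters, of which 0 held the kappaB motif, 0 the interferon-type motif, 1 the AP-1 motif and 9 the metal motif. These matches describe letters in a window, and binding was not measured.

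Among the other ligands, Ccl4, which attracts monocytes and T cells, was restricted to caudal cord. It lay at 11.49, 11.44, 10.62 and 10.78 on the caudal arrays and at 7.93, 8.25, 7.14 and 7.27 on the rostral ones, against 6.92 to 7.30 on sham arrays. Rostral arrays 273 and 274 overlapped sham. The change was 3.99 ± 0.26 in caudal cord (15.9-fold) and 0.46 ± 0.24 in rostral cord, and the difference was 3.54 ± 0.35 (limma adjusted p = 0.00038). Its neighbour in function Ccl3 had a larger and less certain difference of 5.08 ± 0.79 (adjusted p = 0.0115), with 11.14, 11.96, 11.14 and 10.26 on caudal arrays and 7.17, 7.77, 4.83 and 5.02 on rostral arrays. Here rostral arrays 271 and 272 stood clear of the sham range of 4.23 to 4.73, and 273 and 274 were close to it. Ccl12, a ligand of Ccr2, was raised by 5.41 ± 0.45 in caudal cord and by 1.99 ± 0.41 in rostral cord, where the adjusted p was 0.0602, and the difference was 3.41 ± 0.61.

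Tslp and Il1a were the other cytokines of this group. Tslp, an epithelial cytokine that acts on dendritic cells and lymphocytes, was at 3.91 to 4.17 on sham arrays and at 3.96, 4.27, 4.14 and 4.03 on the rostral arrays. It reached 9.23, 8.15, 7.78 and 5.84 on the caudal arrays, and its difference was 3.74 ± 0.68 (limma adjusted p = 0.0266). The rostral arrays lay in or next to the sham range, and every caudal array was above it, 274 the least. Il1a, an alarm cytokine released by damaged cells and microglia, rose by 3.21 ± 0.34 in caudal cord against 0.13 ± 0.31 in rostral cord (difference 3.08 ± 0.46, limma adjusted p = 0.00801). On the whole list of 25 cytokines and receptors, 17 rose in caudal cord, 0 in rostral cord (4 at an unadjusted p under 0.05) and 3 had a difference that passed. The medians were 1.24 in caudal and 0.14 in rostral cord, beside 0.00 and −0.02 over all genes. On the chemokine list of 21 genes, 12 rose in caudal cord, 0 in rostral cord (3 unadjusted), and 4 differed, namely Ccl3, Ccl4, Ccl12 and Cxcl2.

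Receptors and regulators of innate immunity rose in caudal cord with them. Tlr2, a receptor for bacterial lipoproteins and danger signals, was at 10.79, 10.14, 9.64 and 8.92 on caudal 48 h arrays and 7.42, 7.61, 6.94 and 6.90 on rostral ones, with sham at 6.41 to 6.56 in caudal and 6.71 to 6.87 in rostral cord. All rostral arrays were above rostral sham, by far less than the caudal arrays, and the difference was 2.96 ± 0.42 (limma adjusted p = 0.0057). Tlr3, the receptor of double-stranded RNA, rose by 1.24 ± 0.13 in caudal cord and changed by 0.01 ± 0.12 in rostral cord. Clec7a, the beta-glucan receptor dectin-1 and a marker of activated microglia, was 12.18 on caudal array 271 and 10.08 to 10.30 on the other 3, against 6.73 to 8.03 on rostral 48 h arrays and 7.26 to 7.62 on sham arrays. Its difference was 3.19 ± 0.57 (limma adjusted p = 0.0224). Tnfaip3, which ends NF-kappaB signalling, rose by 2.89 ± 0.40 against 0.19 ± 0.37, and Nfkbiz, a nuclear cofactor of NF-kappaB, by 2.28 ± 0.21 against 0.75 ± 0.20. Of 19 NF-kappaB genes 12 rose in caudal and 1 in rostral cord, and of 16 Toll-like receptor genes 7 and 0 (limma, 2 unadjusted in rostral cord), with 2 differences called on each list. Gpr84, a fatty acid receptor of activated myeloid cells, had a difference of 3.11 ± 0.60, and Acod1, which makes itaconate in activated macrophages, one of 3.81 ± 0.74.

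Genes of microglia and macrophages had smaller differences with small errors. Fcrls, which marks resident microglia, was at 10.19, 9.64, 10.10 and 9.79 on caudal 48 h arrays, against 7.90 to 8.14 in caudal sham, 8.15 to 8.35 in rostral 48 h and 8.23 to 8.45 in rostral sham cord. Caudal arrays of both kinds did not overlap, and the rostral groups did. Its caudal change was 1.91 ± 0.13, its rostral change −0.11 ± 0.12 and the difference 2.01 ± 0.18 (limma adjusted p = 0.000177). Mpeg1, a pore-forming protein of macrophages, differed by 1.71 ± 0.18, Cst7, a cystatin induced in activated microglia, by 2.03 ± 0.24, Cd72 by 2.56 ± 0.35 and Cd84 by 1.17 ± 0.18. Ly86, partner of a Toll-like receptor homologue on myeloid and B cells, was 12.04, 10.75, 11.49 and 11.63 on caudal arrays against 9.93 to 10.06 in caudal sham, while its rostral arrays (10.11, 9.62, 9.84 and 10.18) all lay below rostral sham (10.34 to 10.43). The rostral change of −0.44 ± 0.21 did not pass (adjusted p = 0.845), and the difference was 1.94 ± 0.30.

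Not all microglial genes followed Fcrls. Of 13 homeostatic microglia genes, 2 rose in caudal cord (Fcrls and Olfml3) and 1 differed between regions, and the medians were −0.06 in caudal and −0.28 in rostral cord. P2ry12, a purinergic receptor of resting microglia, changed by −0.63 ± 0.36 and −1.11 ± 0.33, and neither change passed. Of 16 genes of disease-associated microglia, 11 rose and 1 fell in caudal cord, 1 rose in rostral cord (Lpl), and 3 differed (Cst7, Clec7a and Ch25h), with medians of 1.13 and 0.08. Of 20 monocyte and macrophage genes, 11 rose in caudal cord, 0 in rostral cord (9 unadjusted), and 3 differed: Fcgr1, an IgG receptor (2.10 ± 0.33), Cybb, a subunit of the phagocyte NADPH oxidase (2.26 ± 0.40), and Adgre1, the macrophage marker F4/80 (1.03 ± 0.20). The mean level of this list was 7.85 to 9.55 on caudal 48 h arrays with array 271 highest, 6.88 to 7.65 on rostral ones, and 6.76 to 7.13 on sham arrays, and its part in the other immune results was not tested. Pan-leukocyte Ptprc (CD45) differed by 1.24 ± 0.22 and Cd69, an early activation marker of leukocytes, by 2.62 ± 0.28.

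Markers of other blood cells did not separate the regions by the test. Of 13 neutrophil genes, 1 rose in caudal cord and 0 differed (2 unadjusted). S100a8, abundant in neutrophils, was 13.46, 11.81, 10.38 and 11.79 on caudal 48 h arrays, against 11.30, 9.85 and 11.82 in caudal sham, so the groups overlapped. On rostral 48 h arrays S100a8 was 8.36, 7.83, 8.06 and 8.53, all below rostral sham (9.02 to 10.01), and the difference was 2.24 ± 0.76 (limma adjusted p = 0.412). None of 12 T and B lymphocyte genes was called in either region or in the difference (limma, 0 at an unadjusted p under 0.05). Their mean level was 5.34 to 5.91 on caudal 48 h and 5.36 to 5.47 on rostral 48 h arrays, against 5.38 to 5.48 on sham arrays.

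Of 12 complement genes, 7 rose in caudal and 0 in rostral cord (0 unadjusted), and 2 differed. C1qa and C1qc, chains of the starter molecule of the classical pathway, rose by 1.37 ± 0.15 and 1.59 ± 0.17 in caudal cord and differed by 1.09 ± 0.21 and 1.39 ± 0.23. The remaining chain, C1qb, differed by 1.48 ± 0.38, which did not pass (limma adjusted p = 0.167). Ctsz, a lysosomal protease, differed by 0.99 ± 0.18. Of 12 MHC class I and immunoproteasome genes 10 rose in caudal cord, 0 in rostral cord (1 unadjusted), and 0 differed in the limma test although all 12 differences were positive (10 unadjusted, median 0.77).

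Interferon-inducible genes rose together in caudal cord, where 23 of 24 passed, and 0 passed in rostral cord (limma, 12 unadjusted). The medians were 2.99 and 0.85. All 24 differences were positive, 21 had an unadjusted p under 0.05, and 2 passed, Cxcl10 and Ifit2. Cxcl10, a chemokine for activated T cells, was at 12.10, 13.71, 12.93 and 11.87 on caudal arrays and at 9.69, 9.28, 7.35 and 6.82 on rostral ones, against 6.08 to 6.60 on sham arrays. Here every rostral array was above sham, 271 and 272 far above it, and the difference was 4.69 ± 0.79 (limma adjusted p = 0.0167). Rsad2, the antiviral enzyme viperin, was just past the threshold (3.44 ± 0.70, adjusted p = 0.0503), with Ifit2 just inside it (2.64 ± 0.53, adjusted p = 0.0496). The interferon-inducible genes Ifi204 (2.44 ± 0.26, limma adjusted p = 0.000549), Mndal (2.26 ± 0.37) and Slfn9 (1.62 ± 0.26), were restricted to caudal cord, as was Cmpk2, a mitochondrial nucleotide kinase (1.61 ± 0.31).

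The rostral response was uneven between arrays. Over the interferon list the median change from rostral sham was 1.63 and 1.71 on rostral arrays 271 and 272, and 0.27 and 0.08 on 273 and 274, against 3.06, 3.93, 3.15 and 2.10 on caudal arrays 271 to 274. The reactive astrocyte list behaved alike, with 1.22, 1.27, 0.30 and 0.09 on the rostral and 2.08, 2.23, 1.49 and 0.52 on the caudal arrays. Socs3, a feedback inhibitor of cytokine signalling, was 10.90, 10.96, 8.66 and 7.37 on rostral arrays against 5.78 to 6.45 in sham, and 12.12, 12.12, 11.45 and 9.82 on caudal ones. Serpina3n, an astrocyte protease inhibitor, was 12.50, 12.36, 10.34 and 9.36 on rostral and 11.47, 12.82, 12.03 and 9.21 on caudal arrays, so that all 4 rostral arrays lay within the caudal range. Over the 52 genes the median rise was 0.43, 0.38, 0.07 and 0.02 on the rostral arrays and 2.48, 2.48, 2.05 and 1.65 on the caudal ones. In caudal cord array 271 was the highest for 30 and array 272 for 20 of the 52 genes, and in rostral cord for 27 and 19. These genes are named for their spread over arrays, chosen after their values were seen.

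**Figure D2:**
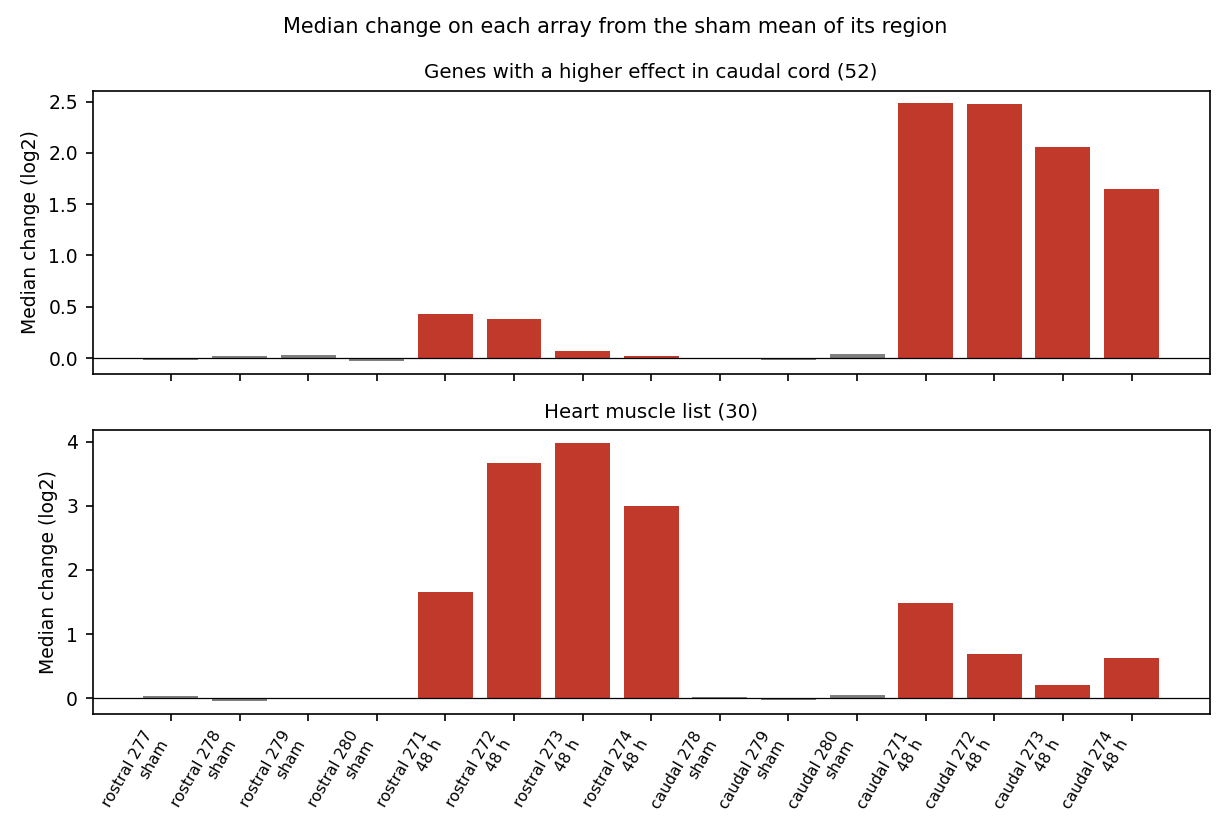
Median change on each array from the sham mean of its region (log2, vertical axis) for the 52 genes with a higher effect in caudal cord (top) and the 30 genes of the heart muscle list (bottom). Red bars are 48 h clamp arrays and grey bars sham arrays. The 52 genes reach 1.65 to 2.48 on caudal and 0.02 to 0.43 on rostral arrays, and the heart list 0.21 to 1.48 on caudal and 1.65 to 3.98 on rostral arrays.

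Immediate early genes, transcribed within minutes of a stimulus, were raised in caudal cord and less so in rostral cord. Of 25 on the list, 19 rose in caudal and 2 in rostral cord, the medians were 1.68 and 0.45, and 5 differed: Jun, Egr3, Atf3, Ier2 and Btg2. Egr3, induced by neuronal activity and in lymphocytes, was 9.20, 9.06, 9.06 and 8.18 on caudal arrays against 6.46 to 7.01 in caudal sham, while its rostral arrays (6.25 to 6.85) overlapped rostral sham (6.54 to 6.77). The difference was 2.33 ± 0.31 (limma adjusted p = 0.00341). Atf3, a stress and axon injury factor, rose by 3.62 ± 0.34 in caudal cord against 0.74 ± 0.31, and its partner Jun by 1.25 ± 0.16 against 0.07 ± 0.15. Gem, a small GTP-binding protein, and Crem, a repressor of cAMP-driven transcription, differed by 1.37 ± 0.20 and 1.12 ± 0.22. Csrnp1, a nuclear protein induced by axin, was the only gene with a larger effect in caudal cord for which both regions and the difference were called. It was 9.89, 10.01, 9.89 and 9.26 on caudal 48 h arrays, 8.63, 8.50, 8.50 and 8.12 on rostral 48 h arrays and 7.39 to 7.85 on sham arrays, so the groups formed steps with no overlap (caudal 2.15 ± 0.17, rostral 0.83 ± 0.16, difference 1.32 ± 0.23, limma adjusted p = 0.0216).

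**Figure D3:**
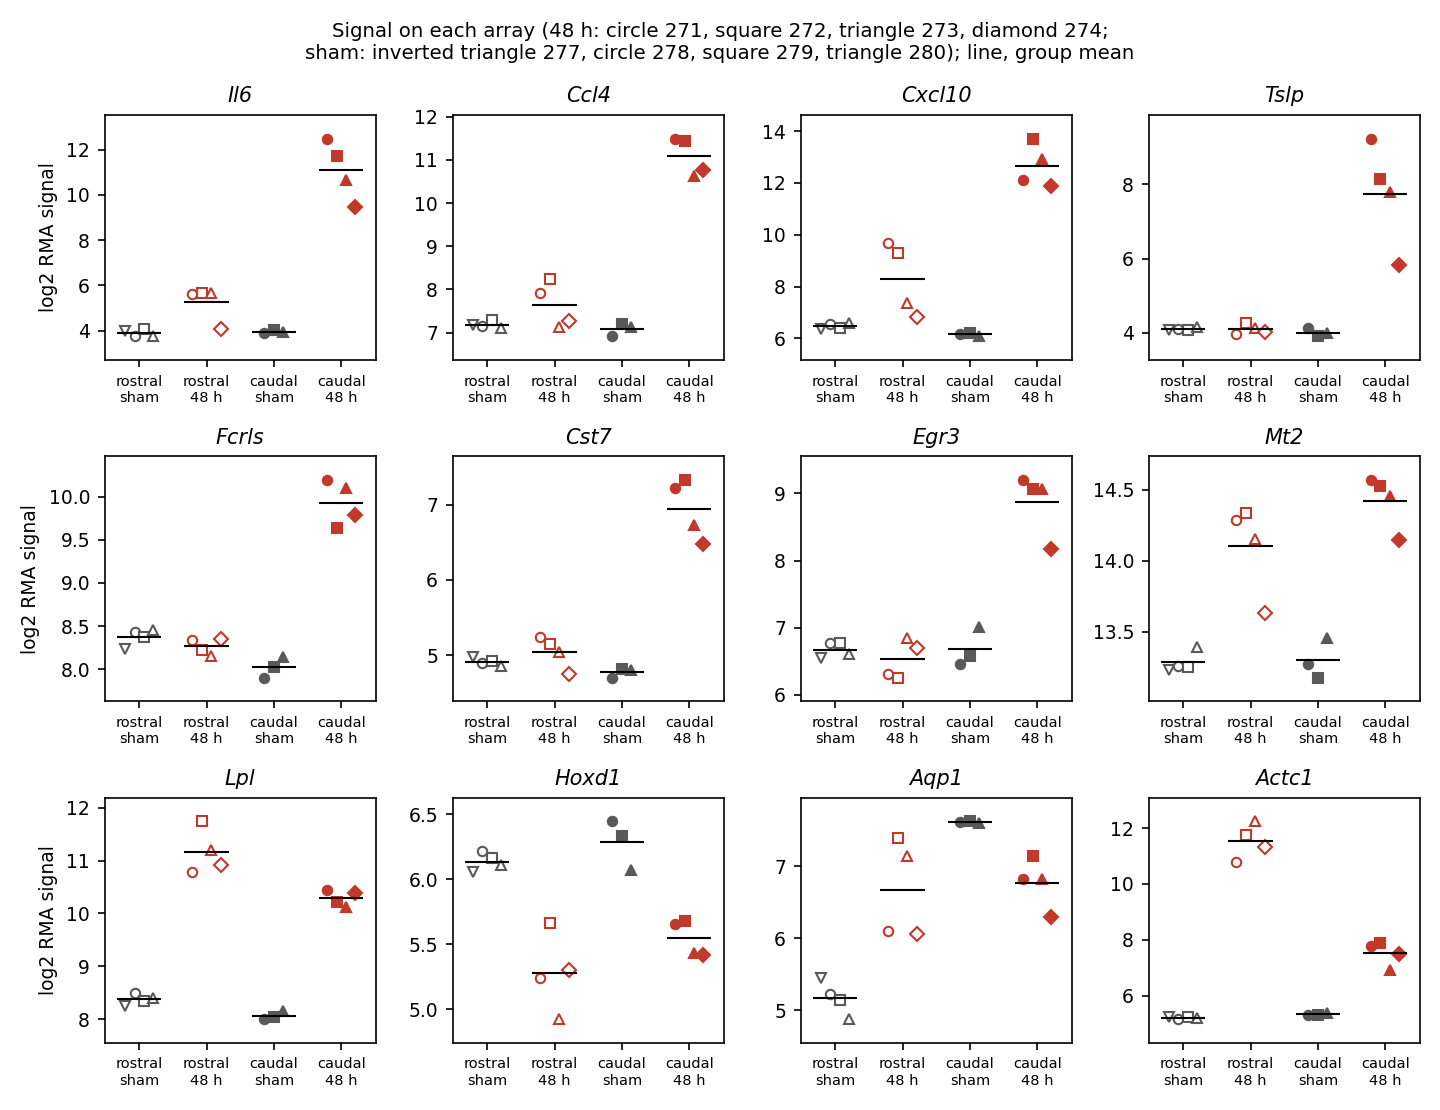
Log2 RMA signal of 12 genes on each of the 15 arrays (points, filled for caudal and open for rostral cord, red for 48 h clamp and grey for sham), with the group mean as a line. Il6, Ccl4, Cxcl10, Tslp, Fcrls, Cst7 and Egr3 are high in caudal 48 h cord, Mt2, Lpl and Hoxd1 change in both regions, Aqp1 falls in caudal and rises in rostral means, and Actc1 is highest in rostral 48 h cord.

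Other genes restricted to caudal cord had varied roles. Hpgd, which breaks down prostaglandins, was 11.28, 9.92, 10.04 and 9.62 on caudal arrays against 7.73 to 8.31 in caudal sham and 7.44 to 8.35 on rostral 48 h arrays (difference 2.52 ± 0.43, limma adjusted p = 0.017). Hcls1, a cytoskeletal adaptor of blood cells, differed by 1.95 ± 0.39. Ube2c, a ubiquitin enzyme of mitosis, differed by 1.75 ± 0.30. It was not on the cell cycle list, on which 5 of 20 genes rose in caudal cord, 0 in rostral cord (0 unadjusted), 0 differed (9 unadjusted), and 19 of 20 differences were positive. The remaining restricted genes that rose had smaller differences of effects, between 0.80 and 0.95. These were Kcne4, a potassium channel subunit, at 0.80 ± 0.16, Arhgap25 at 0.86 ± 0.17, Blnk, an adaptor of B cell receptor signalling, at 0.88 ± 0.15, Dhrs1 at 0.90 ± 0.17 and a clone-named gene. The wide-interval genes not yet given, with their differences, were Slc15a3, a lysosomal peptide transporter (2.66 ± 0.44), Ch25h, which makes an antiviral oxysterol (2.61 ± 0.51), and Btg2, an antiproliferative factor (1.20 ± 0.22).

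Of the 645 genes that rose in caudal cord, 632 had a positive difference. The difference passed for 57 of the 645, of which 52 rose more in caudal and 5 more in rostral cord. Of the 375 that fell, 370 had a negative difference, and it passed for 1, Nexn, a filament-binding protein of muscle and other cells. Nexn was 7.35, 7.41, 7.82 and 7.69 on caudal 48 h arrays against 8.06 to 8.22 in sham, and 8.08, 8.50, 8.58 and 8.34 on rostral 48 h arrays against 7.90 to 8.07 in sham, so the arrays moved apart in opposite directions (−0.56 ± 0.13 and 0.40 ± 0.12, difference −0.95 ± 0.18, limma adjusted p = 0.0388, the rostral change not called). The falls had a median of −0.61 in caudal cord and −0.16 for the same genes in rostral cord, against 1.27 and 0.31 for the rises. Among the 1020 genes called in caudal cord, 911 (89.3%) had the same sign in rostral cord, and for 962 the difference did not pass, although 949 of these were further from 0 in caudal cord. The 95% interval of the difference had a median width of 0.915 over all genes. The SE of the difference had a median of 0.331 among the genes that rose in caudal cord and 0.199 among those that fell. The width is not the smallest difference that the adjusted test could call. Differences larger than it, such as those of C1qb and Rsad2, did not pass.

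Genes changed in both regions were those called in both with the same sign and with no call of the difference. There were 15 (0.0824%), 11 that rose and 4 that fell. For 6 of them the 95% interval of the difference lay within −1 to 1, so the effects were of similar size within that bound. Mt2, a metallothionein that binds zinc and copper and is induced by glucocorticoids and metals, was 14.57, 14.53, 14.46 and 14.14 on caudal 48 h arrays and 14.29, 14.34, 14.15 and 13.63 on rostral ones, against 13.18 to 13.45 on sham arrays. No 48 h array overlapped sham, array 274 was the lowest in both regions, and the difference was 0.31 ± 0.21 with an interval of −0.15 to 0.76. Il12rb1, a receptor subunit of interleukins 12 and 23, rose by 0.49 ± 0.12 and 0.53 ± 0.11. The falls of similar size were in Hoxd1, a Hox gene of sensory neurons, H2-Eb1, an MHC class II chain, Rcn3, a calcium-binding protein of the endoplasmic reticulum, and Tmeff2, a transmembrane protein of neurons and glia. Hoxd1 was 5.66, 5.68, 5.44 and 5.41 on caudal and 5.24, 5.67, 4.92 and 5.30 on rostral 48 h arrays, against 6.05 to 6.45 on all sham arrays, changes of −0.74 ± 0.15 and −0.85 ± 0.14. Of 7 genes on the MHC class II list, H2-Eb1 fell in both regions and Ctss, a protease that prepares the peptide groove, rose in caudal cord (0.90 ± 0.14, against 0.21 ± 0.13 in rostral cord), while H2-Aa had changes of −0.70 ± 0.30 and −1.33 ± 0.28 that did not pass. Tmeff2 has another probe set with the opposite sign of the difference, and with the mean of probe sets its fall did not pass in either region.

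The other 9 genes of this class had intervals that reached past 1 in size, so their effects may differ. Fos (2.62 ± 0.25 and 1.30 ± 0.23), Fosl2 (2.28 ± 0.26 and 1.24 ± 0.24), Zfp36, which destabilises cytokine mRNAs (2.66 ± 0.32 and 1.55 ± 0.29), Cebpb, a transcription factor of the acute phase (2.31 ± 0.19 and 1.27 ± 0.17), and Ccn1, a matrix signalling protein (3.17 ± 0.38 and 1.89 ± 0.35), all had the larger value in caudal cord. Lpl, lipoprotein lipase, was 10.44, 10.21, 10.13 and 10.39 on caudal 48 h arrays and 10.79, 11.74, 11.20 and 10.92 on rostral ones, against 8.0 to 8.15 and 8.25 to 8.49 in the sham groups. Both 48 h groups stood well clear of sham, and the rostral change of 2.79 ± 0.16 was the larger (difference −0.56 ± 0.24, limma adjusted p = 0.567). With the heart score of each array (its mean level over the 30 genes of the heart muscle list) as a covariate, the rostral change of Lpl was 1.51 ± 0.42 and did not pass (limma adjusted p = 0.382). That fit left 1 rostral call over all genes, and Fos, Zfp36, Cebpb and Mt2 also lost their rostral calls in it. Lpl is also made by heart muscle, whose transcripts were higher on rostral 48 h arrays. The part of these transcripts in its rostral change was not tested. Plin4, a lipid droplet protein, rose by 2.85 ± 0.71 and 3.38 ± 0.66 with wide spread. The remaining members, Tnni3 and Mb, are heart muscle genes with the larger value in rostral cord. Leaving out caudal 48 h arrays 271 and 274 and rostral 48 h array 274 gave 73, 35 and 68 genes changed in both regions. Leaving out rostral 48 h arrays 271, 272 and 273 gave 6, 6 and 7, caudal sham arrays 278 and 279 gave 7 and 6, and rostral sham arrays 277 to 280 gave 6, 6, 5 and 6.

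The 15 genes of the glucocorticoid response list had medians of 1.08 in caudal and 0.95 in rostral cord. The median of their differences was −0.26, and 11 of the 15 were negative, with 6 rises in caudal and 1 in rostral cord passing (9 and 13 unadjusted) and 0 differences (0 unadjusted). Fkbp5, an early target of the glucocorticoid receptor, was 10.68, 11.45, 11.70 and 9.80 on caudal and 11.18, 11.53, 11.71 and 9.73 on rostral 48 h arrays, against 9.12 to 9.44 in sham. Arrays with the same number had close values, 274 lowest in both regions, and the difference was −0.26 ± 0.60. Lcn2, an acute phase and astrocyte gene, was raised by 3.13 ± 0.75 and 3.06 ± 0.69, of which the caudal value passed. On the cholesterol synthesis list Lss, Dhcr7 and Mvd fell in rostral cord by 0.63 ± 0.08, 0.73 ± 0.14 and 0.62 ± 0.12, 11 of 12 genes had an unadjusted p under 0.05, and the medians were −0.43 in rostral and −0.15 in caudal cord. No difference passed on this list (limma, 5 unadjusted).

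**Figure D4:**
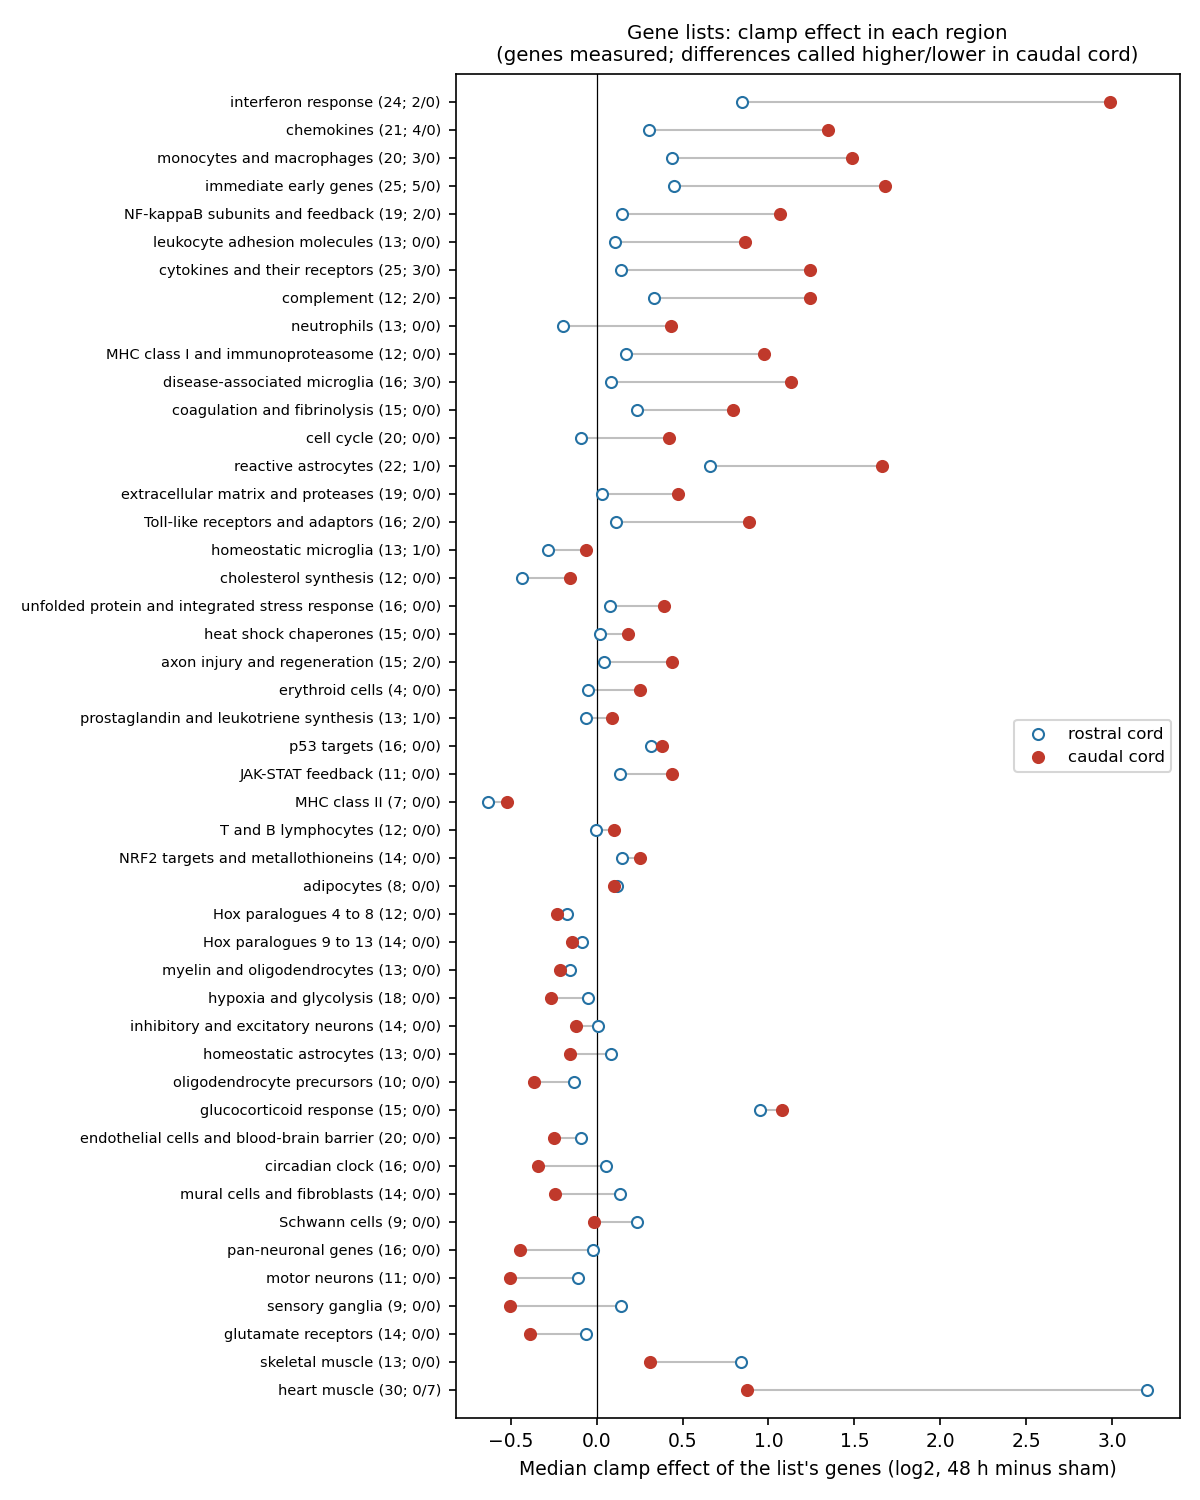
Median clamp effect of 47 gene lists (horizontal axis, log2, 48 h minus sham) in rostral (open circles) and caudal cord (filled circles), ordered by the median difference. Brackets give the genes measured and the differences called higher and lower in caudal cord. Interferon response is at the top with 2.99 and 0.85, the glucocorticoid list has close values of 1.08 and 0.95, and heart muscle is at the bottom with 0.87 and 3.20.

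Genes of neurons had lower medians in caudal than in rostral cord, with no difference called. A negative difference was seen for 15 of 16 pan-neuronal genes (median −0.45), and 0 were called in either region or in the difference (limma, 10, 0 and 2 unadjusted). The median change was −1.16 on caudal array 271, −0.34 on 272, −0.19 on 273 and −0.12 on 274, so it was largest on the array that stood apart. Map2, of the neuronal cytoskeleton, was 11.59, 12.00, 12.11 and 12.32 on caudal 48 h arrays against 12.38 to 12.43 in caudal sham (difference −0.46 ± 0.19). Of 11 motor neuron genes 1 fell in caudal cord, Prph, a filament protein of motor and sensory neurons (−0.60 ± 0.13), and 0 differed (3 unadjusted). Of 20 genes of endothelial cells and the blood-brain barrier, 4 fell and 1 rose in caudal cord, 0 were called in rostral cord (3 unadjusted) and 0 differed (limma, 5 unadjusted). Angpt2, a destabiliser of vessels, rose by 1.26 ± 0.28 in caudal cord. The transporters Slco1a4 and Abcb1a fell there by 1.01 ± 0.18 and by 1.05 ± 0.26, with differences of −0.95 ± 0.25 and −0.85 ± 0.35 that did not pass (limma adjusted p = 0.176 and 0.567). No Hox gene of the 12 of paralogues 4 to 8 or the 14 of paralogues 9 to 13 differed (limma, 0 and 1 unadjusted).

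Of the 17 genes with a lower effect in caudal cord, 7 were on the heart muscle list. Actc1, cardiac actin, was 5.16 to 5.38 on sham arrays, 10.78, 11.75, 12.24 and 11.33 on rostral 48 h arrays and 7.78, 7.89, 6.91 and 7.49 on caudal ones. All 48 h arrays were above sham and the groups did not overlap (caudal 2.19 ± 0.27, rostral 6.32 ± 0.25, difference −4.13 ± 0.37, limma adjusted p = 0.000177). Myl2, the ventricular light chain, Myh6, the atrial heavy chain, Tnnt2, a troponin, and Cd36, a fatty acid carrier, were also raised in both regions, with differences of −3.47 ± 0.65, −3.76 ± 0.54, −3.45 ± 0.44 and −2.20 ± 0.37. The rises of Pln, which restrains the calcium pump, Ckmt2 and Cox6a2, of muscle mitochondria, Tnnc1 and Tcap passed in rostral cord alone, as did those of Mybpc3, Myom1, Myzap, Mlf1 and Srl, for which the caudal interval lay within −1 to 1. Their differences lay between −1.04 ± 0.18 (Mlf1) and −3.74 ± 0.62 (Pln).

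Of the 30 genes on the heart muscle list, 20 rose in rostral cord, 6 in caudal cord, and 7 had a lower effect in caudal cord. Rostral arrays 271 to 274 had median changes of 1.65, 3.66, 3.98 and 3.0 over this list, and the caudal arrays of the same numbers 1.48, 0.69, 0.21 and 0.62. Its mean level was 7.99 to 9.24 on rostral and 6.21 to 7.38 on caudal 48 h arrays, against 5.81 to 5.91 on all sham arrays. Nppa, an atrial hormone and on the list, was at 7.20, 11.67, 12.00 and 11.04 on the rostral arrays. The skeletal muscle list was raised on rostral array 273, with a median change of 3.56, and lay between −0.16 and 0.43 on the caudal 48 h arrays. With the heart score of each array as a covariate, all 17 genes kept their sign with a median of −0.83 in place of −2.38, and 0 passed. The score is the mean of the 30 list genes, which include 7 of the 17. The smaller differences of these 7 are therefore in part built into the fit. The 52 genes also all kept their sign, with a median of 2.08 beside 2.02, and 0 passed (adjusted p 0.156 to 0.213, limma, 5370 genes unadjusted). The error of the difference grew by 1.73 times in that fit, since the score differs between the groups.

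Aqp1, a water channel of sensory neurons, erythrocytes and vessels, also had a lower effect in caudal cord. Its caudal and rostral sham levels differed to begin with, at 7.60 to 7.62 and 4.88 to 5.44. After clamping it was 6.82, 7.14, 6.83 and 6.30 in caudal cord and 6.10, 7.39, 7.14 and 6.05 in rostral cord, so the 48 h groups overlapped. The caudal change was −0.84 ± 0.29 (adjusted p = 0.0986), the rostral change 1.50 ± 0.27 (adjusted p = 0.024) and the difference −2.33 ± 0.40 (limma adjusted p = 0.0167). The sensory ganglia genes Pirt and Scn11a, also higher in caudal sham cord, had differences of −1.48 ± 0.44 and −1.69 ± 0.55 that did not pass. The part of heart and ganglion transcripts in the difference of Aqp1 was not tested beyond the covariate fit. In that fit the difference of Aqp1 was −1.16, against −2.36 for Actc1 and 1.96 for Fcrls. Actc1 is itself part of the heart score.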

How the data were processed

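The values deposited by the authors are log2 signals. The submitters' processing notes name RMA, its version is not given in the sources used here, and no further normalization was applied. The platform annotation pairs 34945 of 45101 probe sets with 1 gene symbol, 932 with several and 9160 with none, and 64 are controls. Genes with several probe sets were represented by the brightest, which gave 18193 genes. Groups follow source names, and the rostral array 276, whose labels disagree on its time, and the 24 h arrays were left out. Group means of 15 arrays were fitted with limma 3.58.1 (lmFit, eBayes, R 4.3.3), with 14.4 degrees of freedom with the prior, and the scripts were tested on simulated data. Tests are two-sided. Classes combine the calls of the caudal effect, the rostral effect and their difference. The members and 47 gene lists were chosen with earlier results of these data known, so lists are described by counts and medians. Named genes are those with the largest effects in each class and up to 3 of each list by the p of the difference. The other members of the classes are named so that all are accounted for, and Hoxc5 and Hoxc10 check the regions. Others were chosen after their values were seen: Socs3, Serpina3n, Fkbp5, Lcn2, P2ry12, Nppa, Dhcr7 and Mvd. Promoters are from RefSeq. The alternatives were probe set means, bright genes, centring, trend and robust, array weights, a 2-fold threshold, blocks, all arrays, a heart score and arrays left out.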

Additional observations from a re-analysis of the deposited data

Results flagged for a closer look

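The difference of effects between caudal and rostral cord passed the limma test over all genes (adjusted p under 0.05) for 69 genes, and the values of the 68 with gene names are gathered here by what the genes do, as caudal minus rostral effect. Among chemokines and cytokines these were Il6 (5.77), Ccl3 (5.08), Cxcl2 (4.99), Cxcl10 (4.69), Tslp (3.74), Ccl4 (3.54), Ccl12 (3.41) and Il1a (3.08). Receptors and enzymes of innate immune cells were Acod1 (3.81), Clec7a (3.19), Gpr84 (3.11), Tlr2 (2.96), Cd69 (2.62), Cd72 (2.56), Cybb (2.26), Fcgr1 (2.10), Ly86 (1.94), Hcls1 (1.95), Ptprc (1.24), Tlr3 (1.23), Cd84 (1.17), Adgre1 (1.03), Blnk (0.88) and Arhgap25 (0.86). Genes of microglia, lysosomes and complement were Cst7 (2.03), Fcrls (2.01), Mpeg1 (1.71), C1qc (1.39), C1qa (1.09), Ctsz (0.99) and Slc15a3 (2.66). The interferon-inducible genes were Ifit2 (2.64), Ch25h (2.61), Ifi204 (2.44), Mndal (2.26), Slfn9 (1.62) and Cmpk2 (1.61). Transcription factors, early response genes and signalling regulators were Atf3 (2.87), Tnfaip3 (2.69), Egr3 (2.33), Nfkbiz (1.53), Ier2 (1.50), Gem (1.37), Csrnp1 (1.32), Btg2 (1.20), Jun (1.18) and Crem (1.12). Other genes with a higher effect in caudal cord were Hpgd (2.52), Ube2c (1.75), Dhrs1 (0.90) and Kcne4 (0.80). A lower effect in caudal cord was found for the muscle genes Actc1 (−4.13), Myh6 (−3.76), Pln (−3.74), Ckmt2 (−3.67), Myl2 (−3.47), Tnnt2 (−3.45), Tnnc1 (−2.82), Cox6a2 (−2.49), Myom1 (−2.38), Mybpc3 (−2.09), Tcap (−1.66), Srl (−1.59), Myzap (−1.31) and Nexn (−0.95), and for Aqp1 (−2.33), Cd36 (−2.20) and Mlf1 (−1.04).

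In 249 groups of 4 arrays, over 83 named genes, 9 arrays lay apart from the others of their group by Dixon's test. Chance alone flags about 1 group in 20. On caudal 48 h array 271 Clec7a was high at 12.18, with the nearest array at 10.30, and Blnk was low at 6.90 (7.23). Caudal 48 h array 274 was low for Csrnp1 at 9.26 (9.89), Egr3 at 8.18 (9.06) and Gpr84 at 8.36 (10.15). Rostral 48 h array 274 was low for Il6 at 4.06 (5.64) and Plin4 at 8.72 (11.04). Adgre1 was low on rostral 48 h array 273 at 6.46 (6.85), and Ube2c on rostral sham array 280 at 5.19 (5.44).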

How the results depend on the processing

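The reported counts are 1020 genes called in caudal and 68 in rostral cord, 52 and 17 with a higher and a lower effect in caudal cord, 15 changed in both regions and 37 restricted to caudal cord. In every alternative run, all of the 52 and the 17 genes that it tested kept their sign (34 and 10 were tested with brighter genes only, and 10 of the 17 without muscle and adipocyte genes), but the counts moved widely. The genes were chosen on arrays that these runs share, so kept signs say little about stability. With the mean of 6 groups fitted to all 21 grouped arrays, there were 2279 caudal and 112 rostral calls, 28 lower, 35 in both and 60 restricted. That fit includes the 24 h arrays numbered 283, on which Hoxc10 was 5.67 under the caudal and 10.14 under the rostral label. This is the reverse of the arrays used in the reported fit. With brighter genes only, there were 37 rostral calls, 32 higher, 10 lower and 22 restricted. Array weights, which gave caudal array 271 a weight of 0.0293, called 6053, 1617, 696, 483, 914 and 861 genes in the same order as the reported counts, and leaving out caudal arrays 271, 274 and 280 called 4547, 645, 455, 253, 340 and 566. Asking for a 2-fold change left 447 caudal calls and 9 in both. The heart score as a covariate left 185, 1, 0, 0, 1 and 0. Leaving out both arrays numbered 271, an alternative chosen after seeing the data, gave 1909, 112, 154, 70, 24 and 134. Leaving out heart, skeletal muscle and adipocyte genes, also chosen after seeing the data, gave 35 rostral calls, 10 lower and 7 in both. Leaving out 1 array in turn gave 346 to 4083 caudal and 36 to 216 rostral calls, 18 to 263 higher, 7 to 73 lower, 5 to 73 in both and 14 to 237 restricted. The mean of probe sets, centred arrays, and trend with robust kept all counts within 1.5 times. With the mean of probe sets the genes behind the counts changed more. Still called were 39 of the 52 and 16 of the 17 genes, and 26 of the 37 restricted and 13 of the 15 shared genes kept their class. The cause of these shifts was not tested.

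Samples of both regions share the numbers 271 to 274 and 278 to 280, which the labels do not tie to animals. Their deviations correlated by 0.0863 (280) to 0.534 (274), and 13 of 14 arrays correlated best with their own number, as a hint from the data. With the number as a fixed replicate block, 127 genes were higher, 12 lower, 15 in both and 50 restricted, 44 of the 52 and 11 of the 17 genes were still called, and it gives no value for the effect in a single region. The named genes no longer called were Adgre1, Arhgap25, Blnk, Btg2, C1qa, Dhrs1, Kcne4, Mlf1, Mybpc3, Myl2, Srl, Tcap and Tnnc1. As a random replicate block (correlation 0.176) it gave 111 higher, 26 lower and 76 restricted. No read depth exists for arrays, and dim probe sets have compressed changes.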
